A study of Homo sapiens with 12 samples.

Results

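The Sprouty and SPRED genes encode inhibitors of signalling from receptor tyrosine kinases through RAS to the kinase ERK. The 6 genes described here are SPRY1, SPRY2 and SPRY4 of the Sprouty family and SPRED1, SPRED2 and SPRED3 of the SPRED family, among 18404 genes measured on the same arrays. They were taken by name. Each was read by 1 probe set annotated with that symbol alone, so no choice between probe sets was needed, and all 6 had values on all 12 arrays. The data are Affymetrix Human Gene 1.0 ST arrays of total RNA from 2 established human melanoma lines, A375 and A2058, both with BRAF V600E per the labels. The groups were A375 with vemurafenib and A2058 with vemurafenib, an inhibitor of mutant BRAF kinase, each set against the same line with DMSO, the solvent. Each of the 4 groups had 3 arrays. Per the labels' protocols, the drug was given at 1 µM over 72 h, with fresh drug every 24 h, and controls received the same volume of DMSO. That protocol text names A375p cells, the source name given for the A375 samples, and stands unchanged on the A2058 samples. Nothing in the labels says that arrays of a group came from separate cultures, so the p-values measure the spread between these arrays, which may be technical.

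Sprouty proteins are made in response to ERK signalling and act back on it: receptor activation leads to their phosphorylation on a conserved tyrosine, after which they bind adaptors such as GRB2 and the ubiquitin ligase CBL. They are among the best known negative feedback genes of this pathway. SPRED proteins share the cysteine-rich Sprouty domain at their carboxyl end and carry an EVH1 domain at their amino end, through which SPRED1 brings the RAS GTPase-activating protein neurofibromin (NF1) to the membrane. In melanoma with mutant BRAF, ERK signalling is driven below the receptors and RAS, and genes of this family serve as readouts of ERK output.

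One array differed from the rest of its group. Over all genes, A375 vemurafenib replicate 1 had r of 0.9939 and 0.9941 to replicates 2 and 3, which had 0.9982 to each other, and r within the other groups was 0.9978 or more. Of the markers of the melanocyte lineage, MITF, SOX10 and S100B read 8.35 to 11.05 as group means in both lines, while the pigment genes PMEL, MLANA and TYR read 4.44 to 5.07 in A375. The 4 measured blood and immune markers had group means of 4.15 to 5.43, with none called in either treatment comparison, and EPCAM and CDH1 lay at 4.48 to 4.57 in all groups. Per array, the mean log2 value of the 5 fibroblast markers was 5.59 to 5.67 in A375 with vemurafenib and 5.05 to 5.13 with DMSO (3 called higher), led by LUM at 6.37 against 4.22. In A2058 it was 5.38 to 5.45 with vemurafenib and 5.47 to 5.49 with DMSO (1 called lower), with LUM at 6.47 against 6.88. The 5 epithelial markers averaged 5.59 to 5.82 in A375 with vemurafenib and 6.09 to 6.17 with DMSO (2 called lower), and 5.38 to 5.47 in A2058 with vemurafenib and 5.73 to 5.82 with DMSO (1 called lower). KRT18 was the brightest of these and moved most. It read 8.48 with vemurafenib against 10.26 with DMSO in A375, and 7.46 against 8.87 in A2058. The 4 endothelial markers averaged 4.82 to 5.34 on all arrays, with none called in A375 and 1 lower in A2058. The 7 measured melanocyte markers averaged 9.95 to 9.97 in A2058 with vemurafenib and 8.55 to 8.62 with DMSO (6 called higher), and 6.88 to 6.97 in A375 with vemurafenib and 6.55 to 6.65 with DMSO (3 called higher, 1 lower). Their part in the responses of the 6 genes was not tested. In bulk RNA, fewer cells with a transcript and less of it per cell cannot be told apart.

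With vemurafenib, 4 of the 6 genes fell in A375 and 1 rose, while in A2058 5 fell and none rose. Called means an adjusted p under 0.05, and 19.3% of all genes were called lower and 17.7% higher in A375, against 12.5% lower and 14.6% higher in A2058. The median response of the 6 genes was -1.12 in A375 and -0.88 in A2058 on the log2 scale, where the median of all genes was 0.0042 in A375 and 0.0064 in A2058. SPRY1, SPRY2, SPRY4 and SPRED2 fell in both lines, as did 6.85% of all genes. The 3 Sprouty genes fell by more than 2-fold in both, as did 0.609% of all genes, and SPRY4 fell most. SPRED2 fell by less, SPRED1 rose slightly in A375 and fell in A2058, and SPRED3 was not called in either line. SPRED1, SPRED2, SPRY1 and SPRY4 responded differently in the 2 lines by a test of the difference itself.

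The promoters of the genes that fell more than 2-fold in both lines, and that of SPRED1, which moved in opposite directions, are printed here to show the regulatory sequence at these genes. RefSeq windows on build GRCh38.p14 run from 250 bases before to 50 bases after an annotated start, and the arrays do not tell which start was used. The windows shown are those of the outermost start of each gene and the other start of SPRY1. They lie at chr5:142324198-142324497 on the minus strand for SPRY4, chr13:80341077-80341376 on the minus strand for SPRY2, chr4:123396545-123396844 and chr4:123398136-123398435 on the plus strand for SPRY1, and chr15:38252586-38252885 on the plus strand for SPRED1. Each is written 5′ to 3′ along its gene, and capitals mark matches on either strand to CCGGAA, the core bound by ETS factors, TGANTCA of AP-1, the E-box CACGTG or the GC box GGGCGG.
SPRY4: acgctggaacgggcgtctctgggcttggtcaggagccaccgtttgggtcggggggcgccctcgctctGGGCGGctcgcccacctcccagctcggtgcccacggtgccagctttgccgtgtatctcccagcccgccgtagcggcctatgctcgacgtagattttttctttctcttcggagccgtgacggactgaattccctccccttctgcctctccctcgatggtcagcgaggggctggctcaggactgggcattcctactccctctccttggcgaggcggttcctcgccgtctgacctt
SPRY2: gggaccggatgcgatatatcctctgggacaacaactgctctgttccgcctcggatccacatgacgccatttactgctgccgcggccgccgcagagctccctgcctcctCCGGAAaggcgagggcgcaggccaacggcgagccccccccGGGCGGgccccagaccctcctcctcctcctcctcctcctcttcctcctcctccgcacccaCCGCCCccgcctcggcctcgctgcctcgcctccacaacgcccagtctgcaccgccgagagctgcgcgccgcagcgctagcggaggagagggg
SPRY1, first start: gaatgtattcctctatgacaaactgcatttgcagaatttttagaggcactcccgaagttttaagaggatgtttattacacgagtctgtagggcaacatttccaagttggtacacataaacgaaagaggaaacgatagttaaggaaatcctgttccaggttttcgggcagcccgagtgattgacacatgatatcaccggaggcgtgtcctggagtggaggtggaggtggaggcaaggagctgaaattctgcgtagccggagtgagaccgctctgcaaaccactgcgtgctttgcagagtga
SPRY1, other start: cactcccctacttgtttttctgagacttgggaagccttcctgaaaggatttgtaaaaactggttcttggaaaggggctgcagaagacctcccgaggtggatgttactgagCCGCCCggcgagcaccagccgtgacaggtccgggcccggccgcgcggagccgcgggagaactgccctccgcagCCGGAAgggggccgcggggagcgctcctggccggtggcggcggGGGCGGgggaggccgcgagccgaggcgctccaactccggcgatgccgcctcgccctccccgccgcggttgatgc
SPRED1: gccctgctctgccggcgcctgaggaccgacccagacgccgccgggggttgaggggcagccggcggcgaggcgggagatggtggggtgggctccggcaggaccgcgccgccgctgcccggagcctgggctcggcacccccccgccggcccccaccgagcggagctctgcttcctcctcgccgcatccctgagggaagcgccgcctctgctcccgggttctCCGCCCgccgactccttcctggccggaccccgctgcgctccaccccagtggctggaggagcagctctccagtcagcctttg
The 6 genes have 11 such windows in the RefSeq table. The ETS core occurred in 2 of these, both shown, and in 17.2% of all 35116 windows. The 2 were SPRY2 at its outermost start and SPRY1 at its other start. SPRY2 has 3 windows, and its inner ones, not shown, held no ETS core. AP-1 letters occurred in 2 windows that are not shown, of SPRED2 and SPRED3 at their inner starts, and in 7.71% of all windows. The E-box occurred in none of the 11 and in 7.26% of all windows, and the GC box in 7 of 11 and in 45% of all. The window of SPRY4, the gene that fell most, held 1 GC box and none of the other letters; a match is a description, and these letters may lie outside the window.

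SPRY4, a Sprouty protein whose gene is used as a marker of ERK output, had the largest response of the family. Its log2 values were 6.19, 6.30 and 6.29 in A375 with vemurafenib, against 10.15, 10.16 and 10.19 with DMSO. In A2058 they were 5.46, 5.49 and 5.71 with vemurafenib, against 8.52, 8.60 and 8.56 with DMSO. All treated arrays lay far below all DMSO arrays of their line, a separation found for 22.6% of all genes in A375 and 18.7% in A2058, and no 2 of the 4 groups overlapped. The response was -3.91 ± 0.060 in A375 (SE of the limma fit; adjusted p = 9.97e-14) and -3.0 ± 0.060 in A2058 (adjusted p = 4.05e-12). These changes correspond to 6.65% of the DMSO value remaining in A375 (95% interval 6.07 to 7.28%) and 12.5% in A2058 (11.4 to 13.7%). The treated A2058 values lay close to those of SPRED3, a dim gene (5.10 to 5.41 over all arrays), so the fall in that line may be understated. By size of fall SPRY4 stood at rank 8 of 18404 genes in A375 and at rank 10 in A2058. NT5E, which encodes an ectonucleotidase, was the only other gene among the 10 largest falls of both lines.

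SPRY1, another inducible Sprouty, had log2 values of 5.98, 5.67 and 5.81 in A375 with vemurafenib, against 7.87, 7.92 and 7.86 with DMSO. In A2058 it read 5.99, 5.99 and 6.07 with vemurafenib, against 7.55, 7.52 and 7.71 with DMSO. Treated arrays lay below the DMSO arrays in both lines, as for 22.6% of all genes in A375 and 18.7% in A2058. The treated arrays of the 2 lines almost met, at 5.98 and 5.99. The response was -2.06 ± 0.072 in A375 (adjusted p = 1.48e-10) and -1.58 ± 0.072 in A2058 (adjusted p = 4.5e-09), which left 23.9% and 33.5% of the DMSO values of those lines.

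SPRY2, the Sprouty gene most studied for its effects on receptor degradation, read 8.98, 9.25 and 9.34 in A375 with vemurafenib, against 10.51, 10.58 and 10.44 with DMSO. In A2058 it read 9.04, 9.05 and 9.04 with vemurafenib, against 10.33, 10.26 and 10.36 with DMSO. The lines thus moved between similar levels, and their treated arrays overlapped. The response was -1.32 ± 0.076 in A375 (adjusted p = 2.01e-08) and -1.28 ± 0.076 in A2058 (adjusted p = 6.16e-08), which left 40.1% and 41.3% of the DMSO values of those lines. SPRY3, the Sprouty gene outside these 6, had a mean of 4.5 over the 12 arrays and was not called in A375 (0.11 ± 0.046, adjusted p = 0.0847) or in A2058 (-0.035 ± 0.046, adjusted p = 0.71). In A375 it passed at 0.16 (adjusted p = 0.00655) without vemurafenib replicate 1, the array that stood apart.

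**Figure D1:**
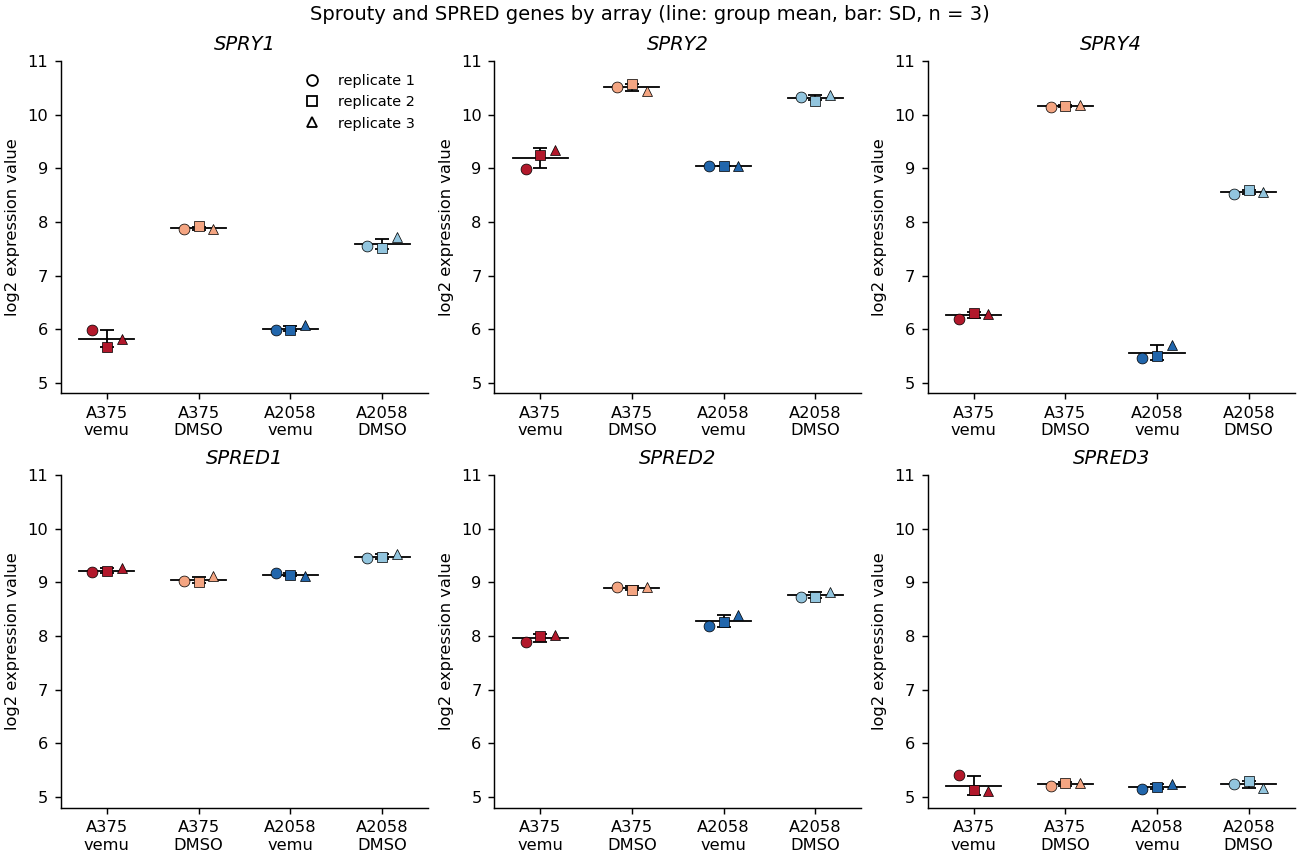
Log2 expression value (vertical axis) of the 6 genes on every array, with 1 panel a gene, the 4 groups along the horizontal axis, symbols for replicates, a line at the group mean and a bar of 1 SD (n = 3). SPRY4, SPRY1, SPRY2 and SPRED2 are lower with vemurafenib than with DMSO in both lines, SPRED1 stays between 9.01 and 9.53 in all groups and SPRED3 between 5.10 and 5.41.

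SPRED2, whose protein carries the EVH1 and Sprouty domains of its family, fell in both lines. Its log2 values were 7.88, 8.0 and 8.01 in A375 with vemurafenib, against 8.91, 8.85 and 8.91 with DMSO. In A2058 they were 8.18, 8.27 and 8.40 with vemurafenib, against 8.72, 8.73 and 8.82 with DMSO. All treated arrays lay below the DMSO arrays of their line, as for 22.6% of all genes in A375 and 18.7% in A2058. The response was -0.93 ± 0.058 in A375 (adjusted p = 4.83e-08), with 52.6% of the DMSO value remaining, and -0.47 ± 0.058 in A2058 (adjusted p = 4.56e-05), with 72% remaining.

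SPRED1, the partner of neurofibromin, whose inherited loss causes Legius syndrome, moved in opposite directions. It read 9.19, 9.21 and 9.27 in A375 with vemurafenib, against 9.02, 9.01 and 9.11 with DMSO. In A2058 it read 9.17, 9.14 and 9.11 with vemurafenib, against 9.45, 9.47 and 9.53 with DMSO. All treated arrays were above their DMSO arrays in A375, as for 21% of all genes, and below them in A2058, as for 18.7%. The response was 0.18 ± 0.042 in A375 (1.13-fold, adjusted p = 0.00493) and -0.34 ± 0.042 in A2058 (79% of the DMSO value, adjusted p = 4.93e-05). Of all genes, 1.8% were called higher in A375 and lower in A2058.

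SPRED3, the third SPRED gene, was dim and did not separate any groups. It read 5.41, 5.13 and 5.10 in A375 with vemurafenib against 5.20, 5.25 and 5.26 with DMSO, and 5.15, 5.18 and 5.24 in A2058 with vemurafenib against 5.23, 5.30 and 5.16 with DMSO. The difference was -0.024 in A375 (95% interval -0.18 to 0.13, adjusted p = 0.864) and -0.040 in A2058 (-0.20 to 0.12, adjusted p = 0.809). These intervals span 88.3 to 109.6% of the DMSO value in A375 and 87.3 to 108.4% in A2058.

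A375 vemurafenib replicate 1, the array apart, gave the lowest of its group's values for SPRY2, SPRY4, SPRED1 and SPRED2 and the highest for SPRY1 and SPRED3. Without it the A375 responses were -2.15 for SPRY1, -1.21 for SPRY2, -3.88 for SPRY4, 0.19 for SPRED1 and -0.88 for SPRED2, all still called, and -0.12 for SPRED3 (adjusted p = 0.0601).

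Whether a response differed between the lines was tested for each gene as the A375 response minus the A2058 response, a comparison in which 29.5% of all genes were called, 16.4% with the lower response in A375 and 13.1% with the higher. SPRY4 fell further in A375 by -0.91 ± 0.085 (adjusted p = 3.9e-06), SPRY1 by -0.49 ± 0.10 (adjusted p = 0.00262) and SPRED2 by -0.45 ± 0.083 (adjusted p = 0.000971). SPRED1 differed the other way, by 0.52 ± 0.060 (adjusted p = 2.54e-05). For SPRY2 the difference was -0.044 with a 95% interval of -0.28 to 0.19 (adjusted p = 0.848), and for SPRED3 it was 0.016 (-0.21 to 0.24, adjusted p = 0.949). Thus 4 of the 6 were called, 3 with the larger fall in A375. Without A375 vemurafenib replicate 1 these 4 values were -0.87 for SPRY4, -0.57 for SPRY1, -0.41 for SPRED2 and 0.53 for SPRED1, all called. Treated SPRY4 in A2058 had a mean of 5.56, near the level of the dim SPRED3. Whether low signal there lessened its fall was not tested.

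**Figure D2:**
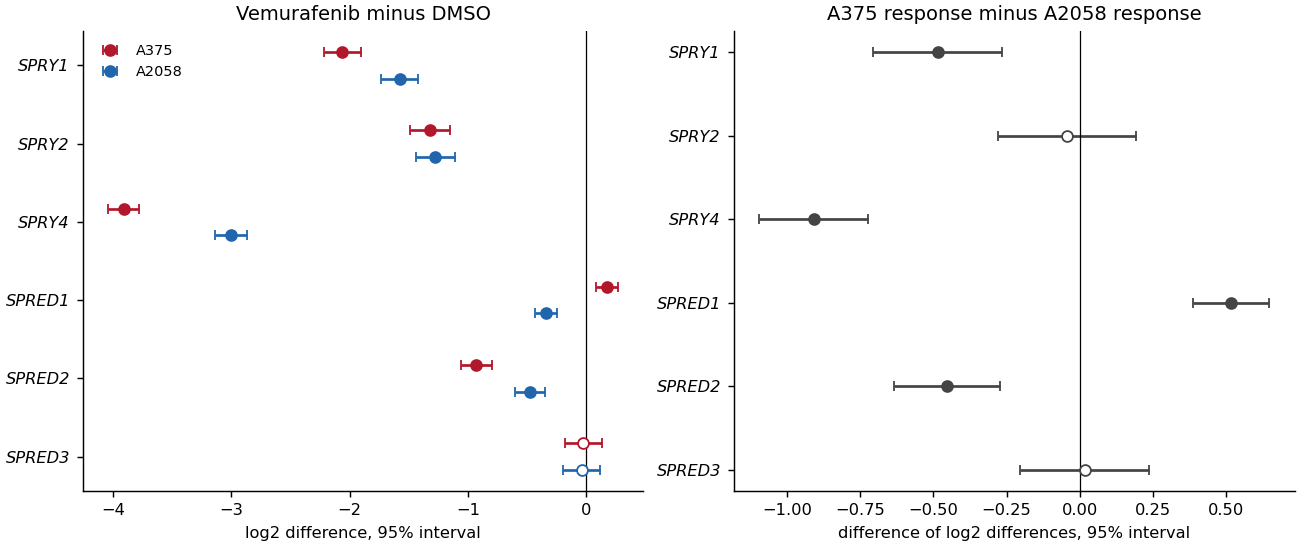
Left, vemurafenib minus DMSO in log2 units with its 95% interval for each gene in A375 (red) and A2058 (blue). Right, the A375 response minus the A2058 response; filled points have an adjusted p under 0.05. SPRY4 has the largest fall in both lines, and the difference is below 0 for SPRY4, SPRY1 and SPRED2 and above 0 for SPRED1.

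The lines were also compared at the same treatment, where line and any batch that goes with it cannot be told apart. With DMSO, 23.9% of all genes were called higher and 22.5% lower in A375 than in A2058. SPRY4 was 3.05-fold higher in A375 (1.61 ± 0.060, adjusted p = 2.78e-10), SPRY1 1.22-fold higher (0.29 ± 0.072, adjusted p = 0.00445), and SPRED1 lower, at 74% of the A2058 value (-0.43 ± 0.042, adjusted p = 1.95e-06). SPRY2 (0.19 ± 0.076, adjusted p = 0.0573) and SPRED2 (0.13 ± 0.058, adjusted p = 0.0817) missed the threshold, although all 3 A375 arrays lay above the A2058 arrays. The same held for SPRY1 and SPRY4 and for 28.5% of all genes, while SPRED1 arrays were all lower in A375, as for 28.3%. Both passed without A375 vemurafenib replicate 1, which enters this comparison through the shared spread (adjusted p = 0.0025 for SPRY2 and 0.0474 for SPRED2), so that 5 rather than 3 genes were called. SPRY2 also passed without A375 vemurafenib replicate 3 (adjusted p = 0.0303) and SPRED2 without A2058 vemurafenib replicate 3 (adjusted p = 0.0491). With all arrays kept, SPRY2 passed when quantile normalized (adjusted p = 0.0197), with an intensity trend and robust spread (0.0319), under array weights (0.00213) and without genes in the lowest quartile of mean level (0.0475), and SPRED2 under array weights (0.0162).

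With vemurafenib, 22.7% of all genes were called higher and 24.2% lower in A375 than in A2058. SPRY4 remained higher in A375 by 0.70 ± 0.060 (1.63-fold, adjusted p = 5.85e-07), less than the difference with DMSO. SPRED2 was lower in A375 by -0.32 ± 0.058 (adjusted p = 0.000487), opposite in sign to its DMSO difference. SPRY1 also changed sign, to -0.20 ± 0.072 (adjusted p = 0.0402), but this call was lost without any 1 of 9 arrays, at adjusted p of 0.0515 to 0.18. Those 9 were all A375 DMSO and all A2058 vemurafenib arrays, A375 vemurafenib replicates 2 and 3, and A2058 DMSO replicate 1. With all arrays kept, it was also lost under an intensity trend with robust spread (adjusted p = 0.0504). SPRED1 no longer separated the lines by the test (0.081, 95% interval -0.011 to 0.17, adjusted p = 0.148). All A375 arrays were above the A2058 arrays for SPRY4 and SPRED1, as for 24.7% of all genes, and below them for SPRY1 and SPRED2, as for 26.5%. SPRY2 was not called (0.15 ± 0.076, adjusted p = 0.144) but passed at 0.25 without A375 vemurafenib replicate 1 (adjusted p = 0.000751).

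**Figure D3:**
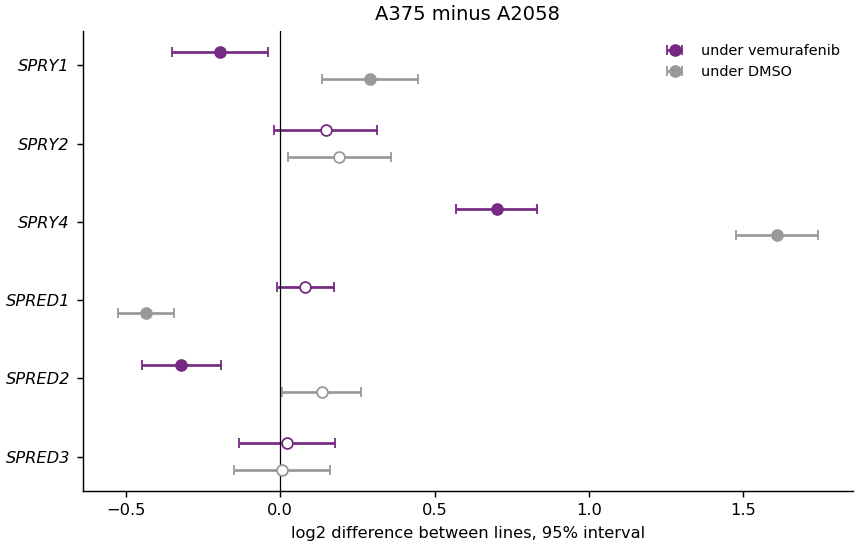
A375 minus A2058 in log2 units with its 95% interval for each gene, with vemurafenib (purple) above DMSO (grey); filled points have an adjusted p under 0.05. The SPRY4 difference is 0.70 with vemurafenib and 1.61 with DMSO, and SPRY1 and SPRED2 lie below 0 with vemurafenib and above 0 with DMSO.

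Put in order of level, A375 with DMSO was highest and the treated groups lowest for all of SPRY1, SPRY2, SPRY4 and SPRED2. The order of SPRY4 was A375 DMSO (10.17 ± 0.019), A2058 DMSO (8.56 ± 0.036), A375 vemurafenib (6.26 ± 0.059) and A2058 vemurafenib (5.56 ± 0.14; SD, n = 3 each), with gaps larger than the spread at each step. For SPRY2 the neighbours A375 vemurafenib (9.19 ± 0.19) and A2058 vemurafenib (9.04 ± 0.0037) overlapped. SPRED1 ran from A2058 DMSO (9.48 ± 0.041) through A375 vemurafenib (9.22 ± 0.041) and A2058 vemurafenib (9.14 ± 0.030) to A375 DMSO (9.05 ± 0.053), and the last of these neighbours met at 9.11. For SPRED3 all neighbours overlapped.

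Over the 12 arrays the members fell into genes that moved together and genes that did not. SPRY1, SPRY2, SPRY4 and SPRED2 correlated with each other at r of 0.88 to 0.972, whereas SPRED1 had r of -0.051 to 0.168 with the others and SPRED3 at most 0.232 with any. These values describe 12 arrays in 4 groups. For SPRY1, SPRY2, SPRY4 and SPRED2 both treated groups had lower means than both DMSO groups. The parts of treatment and line in these r values were not separated. Among all other genes, the 3 with the highest r to SPRY4 were OSBPL10, an oxysterol-binding protein relative (0.998), ANKH, a pyrophosphate transport protein (0.997), and CEMIP, a hyaluronan-degrading protein (0.997), with responses of -1.19, -1.60 and -4.32 in A375 and -0.96, -1.37 and -2.92 in A2058. For SPRY1 they were the transcription factor ZEB1 (0.996), NT5E (0.995) and the adaptor SHB (0.993). For SPRY2 they were GRAMD1B (0.992), the EGFR ligand TGFA (0.991) and the cell cycle kinase CDK6 (0.991), and for SPRED2 the proteoglycan SDC3 (0.989), the phosphatase INPP5F (0.988) and the calcium sensor STIM2 (0.987). SPRED1 was most like TMED2 (0.967), the transferrin receptor TFRC (0.964) and CLPTM1L (0.963), whose responses were 0.051, 0.30 and 0.35 in A375 and -0.13, -0.34 and -0.36 in A2058. SPRED3 was most like PRDM6, KREMEN2 and TRARG1 (0.951 to 0.954), whose responses lay between -0.073 and -0.034 in both lines. SPRED3 itself ranged only from 5.10 to 5.41, with its highest value on A375 vemurafenib replicate 1, and its groups overlapped. Its r values thus describe small differences between arrays and not between groups.

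**Figure D4:**
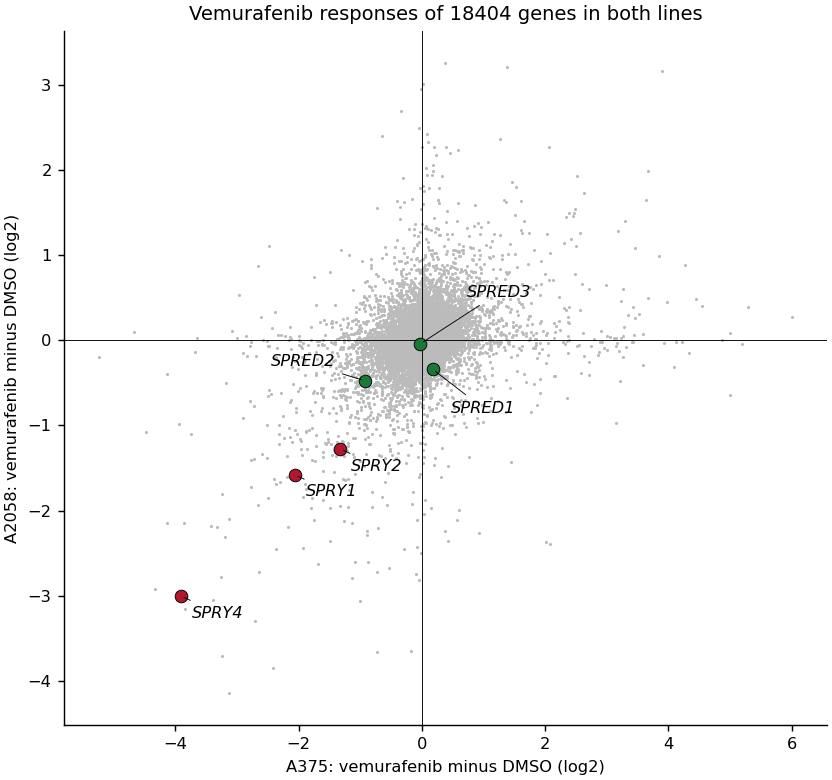
Vemurafenib minus DMSO in log2 units in A375 (horizontal axis) and A2058 (vertical axis) for all 18404 genes (grey points), with Sprouty genes in red and SPRED genes in green. SPRY4 lies at -3.91 and -3.0, at the lower left edge of all genes, and SPRED1 lies right of 0 in A375 and below 0 in A2058.

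Other genes of the pathway were described by lists, in the 2 lines with the background shares given above. Of 14 genes listed as other negative regulators of receptor to ERK signalling, 8 fell and 6 rose in A375 (median -0.21). In A2058, 7 fell and 6 rose (median -0.19). ERRFI1, an inhibitor of EGFR family kinases, fell most in A375 (-3.24 ± 0.061; -1.80 ± 0.061 in A2058). DUSP6, the ERK phosphatase, fell most in A2058 (-2.63 ± 0.055; -1.69 ± 0.055 in A375). SPSB1, a ubiquitin ligase adaptor, rose most in both (0.92 ± 0.075 in A375 and 0.95 ± 0.075 in A2058). Whether SPSB1 restrains ERK signalling in these lines was not tested.

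Of 8 transcription factors induced by ERK, 6 fell and none rose in A375 (median -1.06), and 6 fell and 1 rose in A2058 (median -0.77). ETV4, an ETS factor, fell most in both lines (-3.25 ± 0.075 in A375 and -3.71 ± 0.075 in A2058). FOS, an AP-1 subunit, was the one that rose in A2058 (0.18 ± 0.043, adjusted p = 0.00819).

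Of 12 measured partners and modifiers of Sprouty and SPRED proteins, 7 fell and 3 rose in A375 (median -0.26), and 3 fell and 4 rose in A2058 (median -0.0079). CBL, the ubiquitin ligase bound by Sprouty, fell most in A375 (-0.72 ± 0.038; -0.18 ± 0.038 in A2058), and NEDD4, a ubiquitin ligase that acts on Sprouty proteins, fell most in A2058 (-0.83 ± 0.080; -0.53 ± 0.080 in A375). PPP2CA, the catalytic subunit of the phosphatase PP2A, rose most in A375 (0.25 ± 0.046) and was not called in A2058 (-0.023 ± 0.046). TESK1, a kinase that binds Sprouty proteins, rose most in A2058 (0.31 ± 0.062) and fell in A375 (-0.37 ± 0.062). The partners called higher in A375 numbered 1 without DMSO replicate 1 or 2 or vemurafenib replicate 3 of that line, and in A2058 they numbered 1 or 2 without any 1 of the 6 A2058 arrays.

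Of 9 measured receptor adaptors and RAS exchange factors, 3 fell and 4 rose in A375 (median -0.021), and 2 fell and 5 rose in A2058 (median 0.26); 1 was called lower in A2058 without A2058 DMSO replicate 3 or A2058 vemurafenib replicate 1 or 2. RASGRP3, which loads RAS with GTP, rose by 2.90 ± 0.043 in A375 and was not called in A2058 (0.11 ± 0.043, adjusted p = 0.0941). GAB1, a docking adaptor, rose most in A2058 (0.97 ± 0.065; 1.09 ± 0.065 in A375) and SHC1, a receptor adaptor, fell most there (-0.29 ± 0.045; -0.22 ± 0.045 in A375). SOS2, an exchange factor, fell in A375 (-0.33 ± 0.081) and rose in A2058 (0.64 ± 0.081).

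Of 10 measured RAS, RAF, MEK and ERK genes and their scaffolds, 4 fell and 4 rose in A375 (median -0.015), and 1 fell and 3 rose in A2058 (median 0.019). MRAS, a RAS family GTPase, rose in both (0.73 ± 0.076 in A375 and 0.87 ± 0.076 in A2058). MAP2K1, which encodes MEK1, fell in both (-0.74 ± 0.044 in A375 and -0.28 ± 0.044 in A2058). MAPK3, which encodes ERK1, fell in A375 (-0.79 ± 0.040) but was called slightly higher in A2058 (0.12 ± 0.040, adjusted p = 0.0385). The MAPK3 call in A2058 was lost without A375 DMSO replicate 2, A2058 DMSO replicate 1 or 3 or any A2058 vemurafenib array. In A375, 2 genes of this list were called lower when DMSO replicate 1 or 2 or vemurafenib replicate 3 of A375 was left out, or DMSO replicate 1 of A2058. In A2058, 1 was called higher without A2058 DMSO replicate 1 or 3 or any A2058 vemurafenib array.

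Of 14 measured receptors, 7 fell and 3 rose in A375 (median -0.22), and 5 fell and 3 rose in A2058 (median -0.048). IGF1R, the receptor of insulin-like growth factors, fell most in both (-1.44 ± 0.051 in A375 and -0.66 ± 0.051 in A2058). KIT, which some SPRED proteins bind, rose by 2.96 ± 0.047 in A2058 and was not called in A375 (-0.014 ± 0.047). PDGFRB, a receptor of platelet-derived growth factor, rose in A375 (0.37 ± 0.054) and was not called in A2058 (-0.032 ± 0.054). Among 8 other proteins with an EVH1 domain, 4 fell and none rose in A375 (median -0.22), and 2 fell and 3 rose in A2058 (median 0.15); 1 was called lower in A2058 without A2058 DMSO replicate 1 or 2 or A2058 vemurafenib replicate 1 or 2. The synaptic scaffold HOMER1 fell most in both lines (-0.77 ± 0.092 in A375 and -0.52 ± 0.092 in A2058), and its relative HOMER3 rose in A2058 (0.42 ± 0.065) and fell in A375 (-0.32 ± 0.065).

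**Figure D5:**
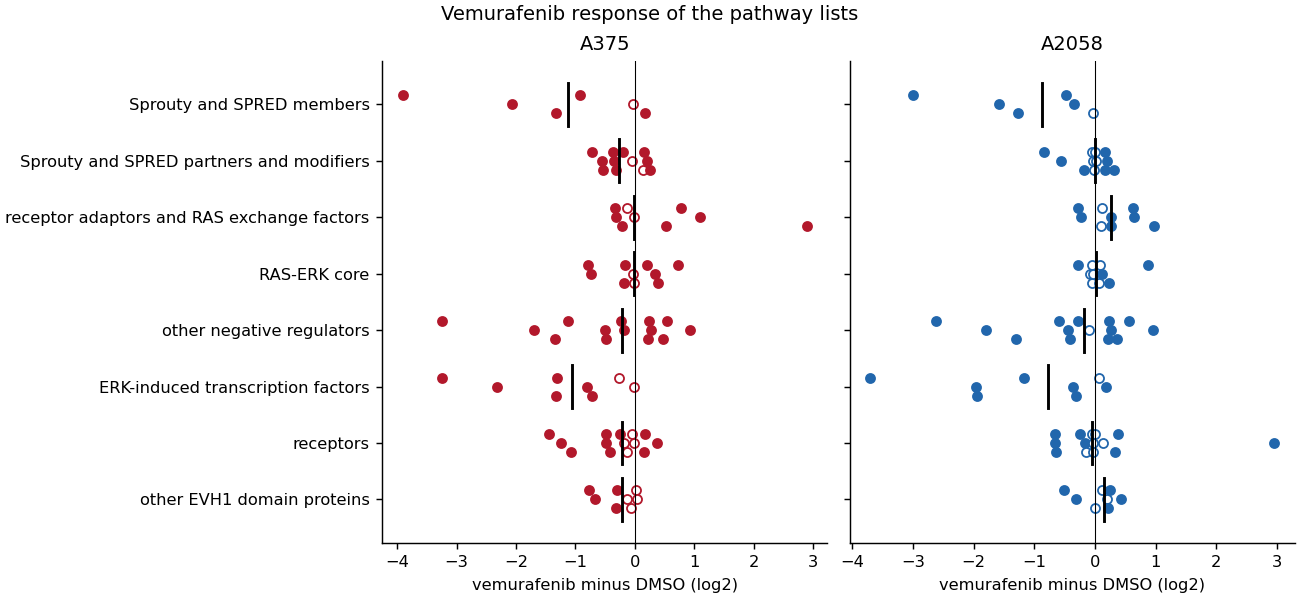
Vemurafenib minus DMSO in log2 units (horizontal axis) of the genes of each list (rows) in A375 (left) and A2058 (right); points are genes, filled where the adjusted p is under 0.05, and bars mark list medians. The medians of the Sprouty and SPRED genes (-1.12 in A375, -0.88 in A2058) and of the ERK-induced transcription factors (-1.06 and -0.77) lie furthest below 0, while the RAS-ERK core genes centre near 0.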

How the data were processed

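Total RNA from 12 samples of A375 and A2058 cells (3 arrays in each of 4 groups, from the sample titles) was amplified from 100 ng, labelled and hybridised, per the labels' protocols. The authors deposited log2 expression values, which were used as they stand. Per the submitters' processing notes R 3.0.1 and affy were used; how background was corrected and probes summarised is not given in the sources used here. The scale was read from the values, 3.24 to 13.08, and array medians of 5.19 to 5.30 were taken as a sign of normalization between arrays, which removes changes shared by all genes; changes of dim genes may be understated. Arrays have no read depth; their number limits precision.

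Of 32321 probe sets, 19158 had exactly 1 symbol, updated through Entrez numbers with RefSeq GRCh38.p14 (19128 matched); the probe set with the highest mean was kept, giving 18404 genes. One model with 4 group means was fitted in limma 3.58.1 under R 4.3.3 (lmFit, eBayes), with 5 contrasts, two-sided tests, Benjamini-Hochberg adjustment over all genes and calls at adjusted p under 0.05. Steps were tested on simulated data. The 6 genes, lists and naming rule were chosen with earlier results of these data known. The text names the 6 genes, the called list gene with the largest rise and fall in each line, genes of lists of 5 or fewer, and the 3 genes most correlated with each of the 6; NT5E beside the ranks of SPRY4 was chosen after its values were seen. Alternatives changed normalization, spread, array weights, dim gene filter, probe set rule, replicate block, arrays in the fit and left out each array. Some genes of the lists are not reported here.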

Additional observations from a re-analysis of the deposited data

Results flagged for a closer look

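For the genes below the vemurafenib response differed between the lines by the fit's own test of the difference (A375 response minus A2058 response, adjusted p under 0.05); values are log2. Among the Sprouty and SPRED genes these differences were -0.91 for SPRY4, -0.49 for SPRY1, -0.45 for SPRED2 and 0.52 for SPRED1. SPRED1 was the one of the 4 whose responses had opposite signs in the 2 lines, and both responses were called.

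Of all genes, 29.5% were called in this comparison. The pathway genes below were named for the largest called rise or fall of their list in a line, on these same arrays. That choice favours genes whose responses differ between the lines, so their differences are a description and their number is no result. Among these named pathway genes, the difference was above 0 for RASGRP3 (2.79), DUSP6 (0.93), ETV4 (0.46), PDGFRB (0.40) and PPP2CA (0.27). It was below 0 for KIT (-2.97), ERRFI1 (-1.44), SOS2 (-0.96), MAPK3 (-0.91), IGF1R (-0.78), HOMER3 (-0.74), TESK1 (-0.68), CBL (-0.54), MAP2K1 (-0.46) and FOS (-0.19). SOS2, HOMER3, TESK1 and MAPK3 fell in A375 and rose in A2058, although the MAPK3 call in A2058 was lost in 6 of the 12 fits with 1 array left out. The FOS difference (adjusted p = 0.0351) was lost in 7 of the 12 fits with 1 array left out, at adjusted p up to 0.0899. Groups of 3 arrays are too small to test for a single outlying array by value.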

How the results depend on the processing

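The responses of the 5 Sprouty and SPRED genes called in each line, and the 4 called differences between the lines, kept their direction and call under every alternative run, including all 12 fits with 1 array left out. The number called was 5 in A375, 5 in A2058 and 4 for the difference in each of these. With the replicate block within each line, 6431 genes were called in A375, 4522 in A2058 and 4934 for the difference, against 6816, 4991 and 5434; the block changed no call of the 6 genes. Deviations of same-numbered arrays correlated at -0.20 to 0.10, and 2 of 12 arrays correlated best with their own number, so the numbers were not taken as pairs. With DMSO, 5 genes rather than 3 differed between the lines under array weights, and 3 to 5 with 1 array left out; SPRY2 was also called when quantile normalized, with an intensity trend and robust spread and without genes in the lowest quartile of mean level; with vemurafenib 2 to 4 did, against 3. Values whose sign turned were not called under any setting. For SPRED3 the A375 response ran from -0.12 to 0.033 with 1 array left out, and its difference between responses from -0.082 to 0.073 (-0.056 under array weights). Its line difference ran from -0.028 to 0.041 with DMSO (-0.019 quantile normalized, -0.013 with array medians subtracted) and from -0.077 to 0.078 with vemurafenib (-0.0504 under array weights). The SPRY2 difference between responses ran from -0.12 to 0.062 (0.036 under array weights). With 1 array left out, the A375 responses of FOS and KIT ran from -0.028 to 0.0071 and from -0.053 to 0.024, and the SPSB1 difference from -0.13 to 0.040; it was 0.015 quantile normalized, where the PPP2CA response in A2058 was 0.0080. The cause was not tested. Signal over background limits SPRED3 and SPRY3, whose probe sets are dim. Treated SPRY4 in A2058 (5.46 to 5.71) and treated SPRY1 in the 2 lines (5.67 to 6.07) also read low, so their falls may be understated.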
